A study of Mus musculus with 10 samples.

Results

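The antioxidant enzymes described here are 10 mouse genes whose products remove superoxide or peroxides: Sod1, Sod2, Sod3, Cat, Gpx1, Gpx3, Gpx4, Prdx1, Prdx3 and Prdx5. They were chosen by gene symbol, and 9 of the 10 had at least 1 named probe among the 19532 genes with a probe. Prdx5 had none and its expression was not analysed here. Of the 9, 8 had values in at least 3 skin samples of each age and entered the test with 13501 genes in all, and Sod3 did not.

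Skin of mice that the labels give the genotype Tsk2, and the titles call transgenic, was compared at 1 month and at 4 months of age. Tsk2 (tight skin 2) is a dominant mouse mutation with thickened, fibrotic skin that is used as a model of systemic sclerosis. The study set such mouse skin beside skin biopsies of people with that disease, and the series' design text writes the strain as Tsk2/+. Each age had 4 skin samples, 1 of which at each age was run on 2 arrays, so that 8 samples gave 10 arrays. All 8 samples carry the Tsk2 genotype, no treatment is named, and skin without the mutation was not analysed here, so that the comparison below is one of ages within Tsk2 skin. The 1-month samples carry 2 ID numbers (samples 1 and 2 share one, samples 3 and 4 the other), and the 4-month samples carry 3 (samples 2 and 3 share one). No ID number occurs at both ages, so age and differences between ID numbers cannot be told apart. Whether each sample is a separate animal is not said in the labels, and p-values cover only the spread among these 8 samples, part of which may be technical.

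On each 2-colour array skin RNA (Cy3) was hybridised with RNA of a reference cell line labelled UMR (Cy5). Values are log2 ratios, with the sign turned so that a positive value means more in skin than in the reference. Neither the log base nor the direction is stated. The direction is likely, because the turned ratios put the mean of epidermal and of muscle genes above 0 and that of cell division genes below 0 in every sample. If it were the other way, every higher value below would read as lower. An exact 0, which 26.1% to 47.4% of the 41174 probes showed on an array, was read as not measured. In whole skin, fewer cells of a type and less RNA per cell cannot be told apart.

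Reactive oxygen is handled in steps. Superoxide dismutases turn superoxide into hydrogen peroxide: Sod1 works in the cytosol, Sod2 in the mitochondrial matrix, and Sod3 is secreted into the extracellular matrix. Catalase (Cat) breaks hydrogen peroxide down in peroxisomes, while glutathione peroxidases (Gpx) reduce peroxides with glutathione and peroxiredoxins (Prdx) do so with thioredoxin. In skin these enzymes meet peroxides from mitochondria, from phagocyte oxidases and from light.

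Across the whole table, 979 of 13501 genes passed the test between ages (limma, Benjamini-Hochberg adjusted p under 0.05), which is 7.25% of those tested, with 566 higher and 413 lower at 4 months. Without adjustment 3279 genes had a p under 0.05. Beside the enzymes, the mean log2 ratio of 31 skeletal muscle markers was 4.26 to 5.64 at 1 month and 5.14 to 6.88 at 4 months, with 6 markers higher in the test. That of 19 cell division genes was -1.04 to -0.55 at 1 month and -3.00 to -1.90 at 4 months, and 16 of them fell. Hair matrix and shaft markers had means of 4.19 to 4.75 at 1 month and 1.27 to 3.09 at 4 months, and 2 of the 11 tested fell. Macrophage markers had -0.12 to 0.73 and 0.68 to 1.67, which overlapped, and none of the 10 tested passed. Melanocyte markers had 2.85 to 3.16 and 0.79 to 1.69, and 2 of the 4 tested fell. Smooth muscle markers had -0.30 to 0.21 and 0.32 to 0.82, and 1 of the 5 tested rose. Each mean was taken over the genes of a list measured in all 8 samples. Keratinocyte marker means of 3.99 to 5.36 and 4.01 to 5.40 overlapped between ages, as did fibroblast means of 1.43 to 2.36 and 1.27 to 2.25. The tissue label of skin is thus matched by its markers, with muscle RNA also present in all 8 samples. No marker of these lists was at 0 on all arrays. Their part in the results below was not tested, apart from the muscle list where stated.

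None of the 8 tested enzymes passed the test between ages in limma (7.25% of all genes did), and 1 of them, Sod2, had an unadjusted p under 0.05. Of the 8, 7 had a difference above 0, against 52.3% of all genes, and their median difference was 0.57, against 0.03 for all genes. The ages did not overlap for 1 of 8, Sod2, where 21.1% of all genes showed no overlap. The mitochondrial enzyme Sod2 had the largest estimate at 0.85 and the cytosolic peroxiredoxin Prdx1 the only one below 0, at -0.17.

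**Figure D1:**
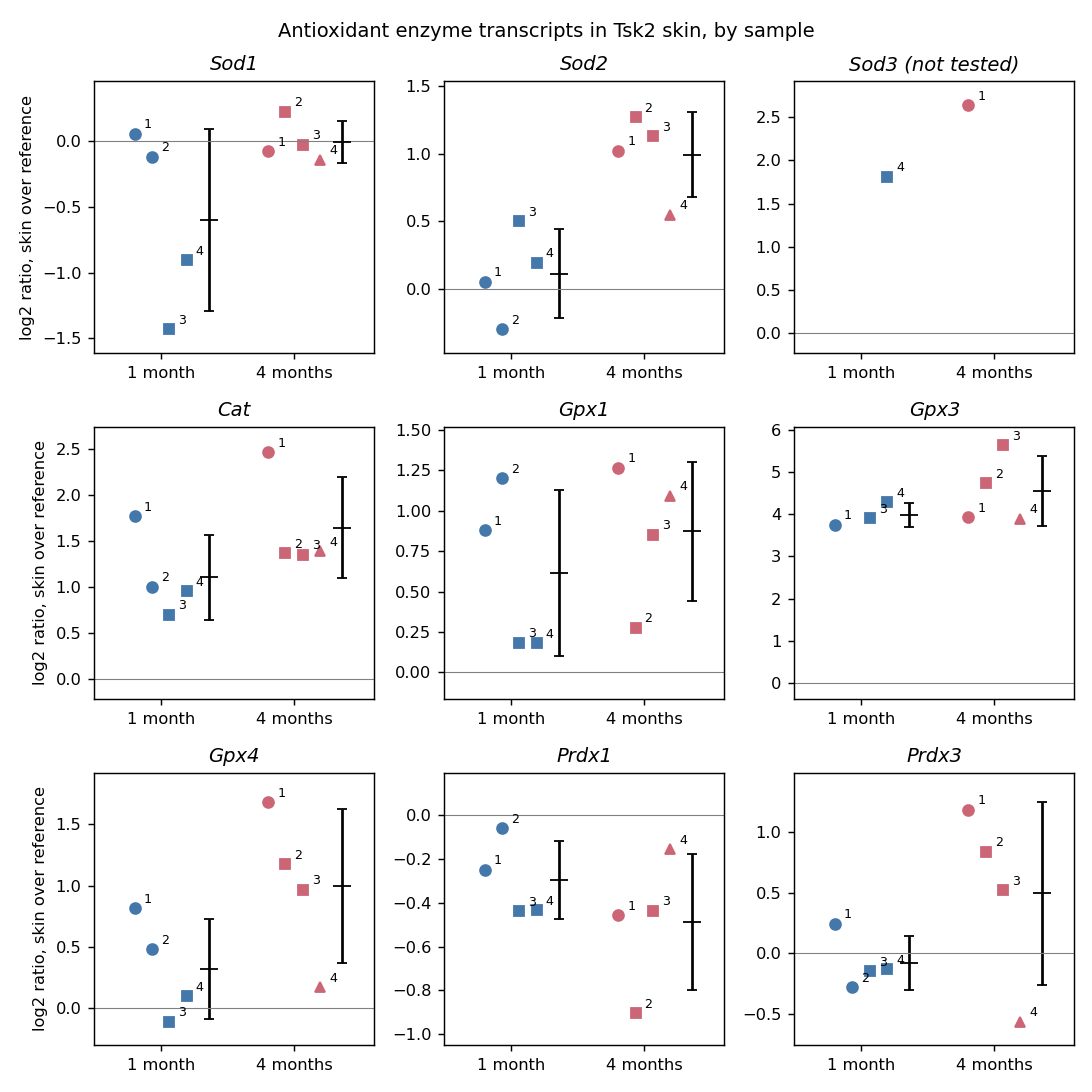
Log2 ratio of skin over reference (vertical axis, scaled separately in each panel) for the 9 enzymes with a probe, at 1 month (blue) and 4 months (red). Each point is 1 skin sample with its number, points of the same shape and age share an ID number, and bars are the mean ± SD. Sod2 is the only tested enzyme whose 4-month points all lie above its 1-month points, and Sod3 was measured in 1 sample of each age.

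Sod2 encodes the manganese superoxide dismutase of the mitochondrial matrix (gene at chr17:13007839-13018119, GRCm38.p6). Its log2 ratio was 0.05, -0.30, 0.50 and 0.19 in 1-month samples 1 to 4. At 4 months it was 1.02, 1.27, 1.13 and 0.55. Sample 4 was the lowest at 4 months but still above sample 3, the highest at 1 month. The means were 0.11 ± 0.33 and 0.99 ± 0.31 (SD, n = 4 each), and the difference was 0.85 (SE 0.27, 95% interval 0.25 to 1.45). The adjusted p in limma was 0.0872, so Sod2 did not pass, and it stood at rank 1579 of 13501 by p. Without 4-month sample 4 the difference was 1.02 and the adjusted p 0.0234, in a fit that called 16.9% of all genes. Without the ID number as a random block it was 0.88 with an adjusted p of 0.0382 (15.0% of genes called), and with array weights 0.81 with 0.0206 (26.6% called). With the mean of the muscle markers as a covariate the difference was 0.95, with an adjusted p of 0.167.

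Prdx3 is the peroxiredoxin of mitochondria (chr19:60864066-60874538). At 1 month its log2 ratio was 0.24, -0.28, -0.15 and -0.13 in samples 1 to 4. At 4 months it was 1.19, 0.84, 0.52 and -0.57. Samples 1 to 3 at 4 months were above every 1-month sample, and sample 4 was below all of them. The means were -0.08 ± 0.23 and 0.49 ± 0.76 (SD, n = 4 each). The difference of 0.55 (SE 0.40, 95% interval -0.34 to 1.44) had an adjusted p of 0.443. It was 0.95 with an adjusted p of 0.0351 once 4-month sample 4 was left out, again in the fit that called 16.9% of genes. The lowest difference on leaving out a sample was 0.27. Means were also taken over the 47 respiratory chain genes measured in all 8 samples, which encode the complexes of the inner mitochondrial membrane. There 4-month sample 4 had the lowest mean log2 ratio of its age, 0.82 against up to 1.77. Unlike its Prdx3 value, that mean lay above those of all 1-month samples (0.41 to 0.56).

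Sod1 encodes the copper and zinc superoxide dismutase of the cytosol (chr16:90220762-90226333). As the mean of its 3 probes its log2 ratio was 0.05, -0.12, -1.43 and -0.91 in 1-month samples 1 to 4, and -0.08, 0.22, -0.03 and -0.14 at 4 months. The spread lay at 1 month: samples 3 and 4, which share an ID number, were below all others, while samples 1 and 2 lay within the 4-month range. The means were -0.60 ± 0.69 and -0.01 ± 0.16 (SD, n = 4 each). Sod1 did not pass, with a difference of 0.58 (SE 0.34, 95% interval -0.18 to 1.34) and an adjusted p of 0.339.

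The 3 Sod1 probes did not give the same picture. The probe annotated to the RefSeq transcript had means of -1.06 ± 0.76 and -0.25 ± 0.46 and a difference of 0.78. The first of the 2 probes annotated to a cDNA clone was near 0 in every sample, between -0.16 and 0.12, with a difference of -0.048. It was at exact 0 on 2 arrays, so that the value of 1-month sample 3 in the mean of the 3 probes was filled in from the fit to the other probes. The second cDNA probe had a difference of 0.68, but its value in 1-month sample 1 averaged 2 arrays that were 2.10 apart. For the 14 repeat-array gaps of the other members' probes the range was 0.047 to 0.456, with a median of 0.291.

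**Figure D2:**
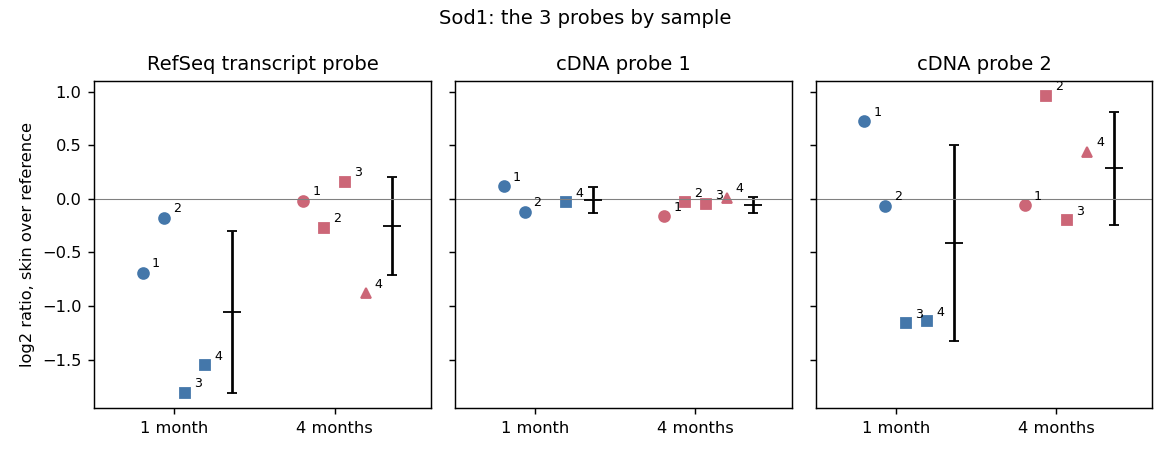
Log2 ratio of skin over reference for each of the 3 Sod1 probes (vertical axis) at 1 month (blue) and 4 months (red). Points are skin samples with their numbers, shapes mark ID numbers within an age and bars are the mean ± SD. The RefSeq transcript probe and the second cDNA probe place 1-month samples 3 and 4 lowest, and the first cDNA probe stays between -0.16 and 0.12.

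Prdx1 is the abundant peroxiredoxin of the cytosol (chr4:116685599-116700000). Its log2 ratio was -0.25, -0.06, -0.44 and -0.43 at 1 month and -0.46, -0.90, -0.44 and -0.15 at 4 months. All 8 samples lay below the reference and the ages overlapped, with means of -0.30 ± 0.18 and -0.49 ± 0.31 (SD, n = 4 each). The difference of -0.17 (SE 0.24, 95% interval -0.71 to 0.38) had an adjusted p of 0.736, and the interval leaves room for a change in either direction.

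The start regions of these 4 genes are shown because they are the cytosolic and the mitochondrial form of each of 2 enzyme families, so that the sequence motifs they hold can be set beside their values. Each is 300 bases from 250 before to 50 after the annotated start (RefSeq, GRCm38.p6). In Sod1 and Prdx1 the capitals mark the core of the antioxidant response element, searched as TGACNNNGC on both strands. In Sod2 and Prdx3, which hold no such match, they mark GC boxes, GGGCGG or its reverse complement CCGCCC. The windows are chr16:90220512-90220811 (plus strand) for Sod1, chr4:116685349-116685648 (plus) for Prdx1, chr17:13007589-13007888 (plus) for Sod2 and chr19:60874489-60874788 (minus) for Prdx3.
Sod1: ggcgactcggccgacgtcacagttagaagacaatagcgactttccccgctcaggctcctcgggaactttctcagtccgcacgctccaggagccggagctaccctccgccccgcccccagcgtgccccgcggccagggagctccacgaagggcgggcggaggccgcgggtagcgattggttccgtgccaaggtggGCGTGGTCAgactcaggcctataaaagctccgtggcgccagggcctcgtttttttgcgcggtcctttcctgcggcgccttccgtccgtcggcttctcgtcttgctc
Prdx1: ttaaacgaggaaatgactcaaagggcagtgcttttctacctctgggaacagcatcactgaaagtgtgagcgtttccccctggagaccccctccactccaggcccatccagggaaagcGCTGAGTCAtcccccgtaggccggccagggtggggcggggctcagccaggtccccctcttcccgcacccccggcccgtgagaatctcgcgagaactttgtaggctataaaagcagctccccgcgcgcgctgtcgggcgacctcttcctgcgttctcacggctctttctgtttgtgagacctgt
Sod2: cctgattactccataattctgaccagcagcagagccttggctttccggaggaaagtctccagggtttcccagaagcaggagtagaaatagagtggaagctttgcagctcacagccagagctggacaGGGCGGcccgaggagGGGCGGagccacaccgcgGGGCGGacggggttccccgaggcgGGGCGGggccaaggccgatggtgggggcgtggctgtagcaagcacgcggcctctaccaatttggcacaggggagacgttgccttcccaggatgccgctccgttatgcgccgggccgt
Prdx3: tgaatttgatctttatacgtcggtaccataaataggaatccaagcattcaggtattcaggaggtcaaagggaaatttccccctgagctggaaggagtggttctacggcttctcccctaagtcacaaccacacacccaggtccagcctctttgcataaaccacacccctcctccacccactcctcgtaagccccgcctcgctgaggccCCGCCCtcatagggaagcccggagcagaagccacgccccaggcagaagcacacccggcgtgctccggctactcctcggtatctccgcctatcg

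The antioxidant response element is the site that Nrf2, the transcription factor encoded by Nfe2l2, is known to bind with small Maf proteins. The 9 members with a listed promoter, which include Prdx5 but not Sod3, have 12 such windows, 4 of them of Gpx4. The core occurred in 2 of the 12, those of Sod1 and Prdx1, and in 12.4% of all 32851 windows of that length. In Sod1 it began 56 bases before the start, as GCGTGGTCA, and in Prdx1 133 bases before it, as GCTGAGTCA, both on the minus strand. GC boxes occurred in 11 of the 12 windows, all but 1 of those of Gpx4, and in 35.7% of all windows. The windows of Sod2 and Sod1 held 4 each, with overlaps between some of those of Sod1. The 2 motifs did not overlap in any of the windows. These matches describe letters only. The 2 members with the core had differences of 0.58 and -0.17, neither past the test.

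Cat, the catalase of peroxisomes (chr2:103453904-103485153), had log2 ratios of 1.77, 1.00, 0.70 and 0.95 at 1 month. At 4 months it had 2.47, 1.37, 1.35 and 1.39. Sample 1 was the highest at both ages, and the other 4-month samples lay between 1.35 and 1.39, below 1-month sample 1. With means of 1.11 ± 0.46 and 1.65 ± 0.55 (SD, n = 4 each), the difference of 0.58 (SE 0.37, 95% interval -0.24 to 1.40) had an adjusted p of 0.374.

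Gpx1 is the main glutathione peroxidase of the cytosol and is also found in mitochondria (chr9:108339080-108340342). Its log2 ratio was 0.88, 1.20, 0.18 and 0.18 at 1 month and 1.27, 0.28, 0.85 and 1.09 at 4 months. As for Sod1, 1-month samples 3 and 4 were lowest, and 4-month sample 2 lay close to them. The means of 0.61 ± 0.51 and 0.87 ± 0.43 (SD, n = 4 each) differed by 0.30 (SE 0.33, 95% interval -0.44 to 1.05, adjusted p 0.642 in limma).

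Gpx4 reduces lipid peroxides within membranes and is the enzyme known to hold back ferroptosis, a form of cell death driven by lipid peroxides (chr10:80047166-80056439). Its log2 ratio was 0.82, 0.48, -0.11 and 0.10 at 1 month. At 4 months it was 1.68, 1.18, 0.97 and 0.17. The 4-month samples 1 to 3 were above all 1-month samples, and sample 4 lay among them. The means were 0.32 ± 0.41 and 1.00 ± 0.63 (SD, n = 4 each) and the difference 0.67 (SE 0.37, 95% interval -0.16 to 1.50, adjusted p 0.311 in limma). With array weights it was 1.00 with an adjusted p of 0.0305, in the fit that called 26.6% of genes.

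Gpx3 is the secreted, plasma glutathione peroxidase (chr11:54902854-54910387). Its log2 ratio was 3.75, 3.91 and 4.29 in 1-month samples 1, 3 and 4, and sample 2 was at exact 0 and read as not measured. At 4 months it was 3.93, 4.74, 5.64 and 3.89. The ages overlapped, since 4-month samples 1 and 4 lay within the 1-month range, and the means were 3.98 ± 0.28 (SD, n = 3) and 4.55 ± 0.82 (SD, n = 4). The difference of 0.50 (SE 0.46, 95% interval -0.55 to 1.55) had an adjusted p of 0.565. Its sign was not stable: it was -0.15 after quantile normalization between arrays and -0.67 with the muscle markers as a covariate. When the 0 of sample 2 was kept as a ratio it was 1.48.

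Sod3, the secreted superoxide dismutase that binds the extracellular matrix (chr5:52363804-52369738), was at exact 0 on 8 of 10 arrays. It was measured at 1.81 in 1-month sample 4 and at 2.64 in 4-month sample 1. No mean or test between ages was made for it.

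**Figure D3:**
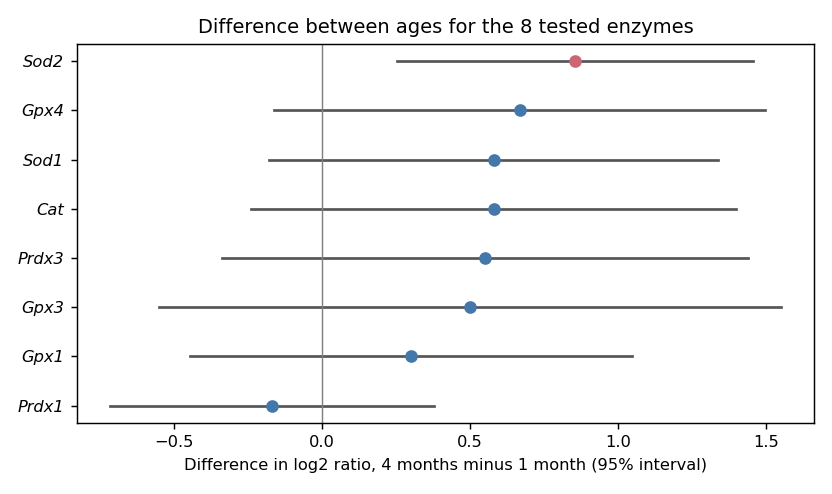
Difference in log2 ratio between ages, 4 months minus 1 month (horizontal axis), for the 8 tested enzymes. Points are limma estimates and lines their 95% intervals, and red marks the 1 enzyme, Sod2, whose ages do not overlap. The Sod2 interval (0.25 to 1.45) lies above 0 before adjustment over all genes. The other 7 intervals include 0.

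Whether the mitochondrial or secreted form of an enzyme moved unequally to the form in the cytosol was tested on the difference of the 2 log2 ratios within each sample. Of 4 such pairs 3 could be tested, since Sod3 was measured too rarely, and p-values were adjusted over the 3. The 1-month mean of Prdx3 minus Prdx1 was 0.21 ± 0.31 and the 4-month mean 0.98 ± 0.99 (SD, n = 4 each), and the change of 0.77 had an exact two-sided permutation p of 0.229 (adjusted p 0.686). Sod2 minus Sod1 was 0.71 ± 0.99 and 1.00 ± 0.21, a change of 0.29 with an exact permutation p of 0.6 (adjusted p 0.9). Gpx3 minus Gpx1 was 3.57 ± 0.63 (n = 3) and 3.68 ± 1.10 (n = 4), a change of 0.11 with an exact permutation p of 0.914 (adjusted p 0.914). With the exact 0 of Gpx3 in 1-month sample 2 kept as a ratio, that change was 1.30 (exact permutation p 0.457, adjusted p 0.61). The smallest p that these permutations can give is 0.0286. Prdx3 minus Prdx1 reached it without 4-month sample 4, at a change of 1.23 (adjusted p 0.0857). These permutations treat samples that share an ID number as independent. On means per ID number (2 against 3) the change of Prdx3 minus Prdx1 was 0.645, with an exact permutation p of 0.4. The smallest p possible there is 0.1. The other 2 changes turned sign when single samples were left out, Sod2 minus Sod1 to -0.14 and -0.21 once sample 1 or sample 2 of 1 month was dropped. In both fits the first cDNA probe of Sod1, not measured in 1-month sample 3, also failed the filter. The 4-month mean of that pair moved from 1.00 to 0.98 although no 4-month sample was dropped. These sign turns thus mix a dropped sample with a changed probe set. Gpx3 minus Gpx1 turned to -0.15 and -0.26 on dropping sample 2 or sample 3 of 4 months.

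**Figure D4:**
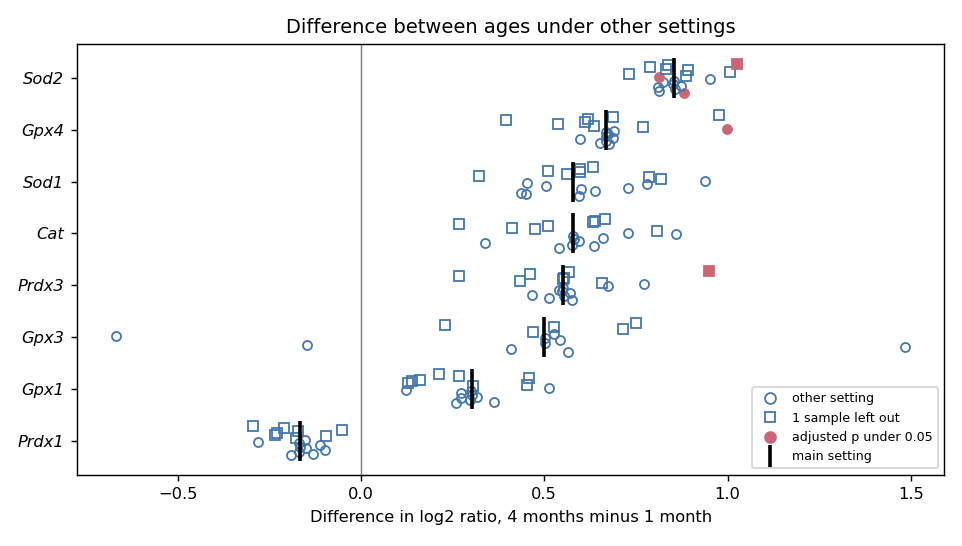
Difference in log2 ratio, 4 months minus 1 month (horizontal axis), for each tested enzyme under the other processing settings (circles) and with 1 sample left out (squares). The black bar is the reported value and red fill marks an adjusted p under 0.05. Sod2 spans 0.73 to 1.02 and stays above 0, and Gpx3 is the only enzyme with values on both sides of 0.

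The profile of Sod2 over the 8 samples was most like those of Saraf, Mrpl15, Lysmd4, Nap1l4 and Flad1. Likeness was the root mean square difference of profiles, each centred on its own mean, over 12397 genes measured in all 8 samples. It was 0.103, 0.109, 0.109, 0.115 and 0.121 in log2 ratio for the 5 genes. Saraf regulates store-operated calcium entry, Mrpl15 is a protein of the mitochondrial ribosome and Flad1 makes the cofactor FAD. Of the 5, Flad1 passed the test between ages (difference 0.93, adjusted p 0.0466 in limma), while the other 4 had differences of 0.74 to 0.87 and adjusted p of 0.0978 to 0.145. Since the 5 were chosen for likeness to Sod2 in these same samples, their differences lie near that of Sod2 by the choice.

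The genes that work with these enzymes were followed in lists by role. In the list of other dismutase, peroxidase and peroxiredoxin genes, 9 of 10 tested members had a difference below 0, with a median of -0.63 against 0.03 for all genes, and 1 fell in the test (3.06% of all genes did). That was Sesn3, a sestrin of the oxidative stress response, with -1.27 (SE 0.28, adjusted p 0.0292). Its 1-month log2 ratios lay between -0.04 and 0.95 and its 4-month ones between -0.99 and -0.42. Without 1-month sample 1 its adjusted p was 0.0596, in a fit that called 1.22% of all genes (7.25% with all samples). Sesn3 passed in 4 of the 8 fits with a sample left out, and its adjusted p was 0.0582 to 0.0673 in the others. Prdx2, the other abundant peroxiredoxin of the cytosol, was 0.41, -0.02, 1.07 and 0.93 at 1 month and -0.21, -0.20, -0.35 and -0.06 at 4 months. The ages of Prdx2 did not overlap, and its difference of -0.79 (SE 0.28) did not pass (adjusted p 0.115). Prdx4, the peroxiredoxin of the endoplasmic reticulum, had -0.98 (adjusted p 0.107). Srxn1, the sulfiredoxin that restores oxidised peroxiredoxins, had 1.36 (adjusted p 0.207), and Ccs, the chaperone that loads copper into Sod1, had -0.07 (adjusted p 0.898).

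Glutathione is the electron source of the Gpx enzymes. Of its 12 tested genes of synthesis and recycling, 2 fell and none rose, where 3.06% of all genes fell and 4.19% rose. Differences were below 0 for 9 and above 0 for 3 (52.3% of all genes were above 0), and the median was -0.67. The 2 were Cbs and Cth, the enzymes that make cysteine from methionine. Cbs had log2 ratios of 2.52 to 3.11 at 1 month and 1.49 to 1.63 in the 3 measured 4-month samples, a difference of -1.32 (SE 0.25, adjusted p 0.0208). Cth ran from -0.94 to 0.33 and from -1.97 to -1.38, with a difference of -1.35 (SE 0.31, adjusted p 0.035). Without 1-month sample 1 neither passed, in the fit that called 1.22% of all genes. Among all fits with a sample left out, Cth passed in 3 of 8 and Cbs in 4 of the 5 that tested it. Gclc, the catalytic subunit of the rate-limiting ligase, had -1.61 (SE 0.50, adjusted p 0.0836), and Gss, glutathione synthetase, -0.81 (adjusted p 0.0766), both with ages that did not overlap. Gclm, the other ligase subunit, had -0.77 (adjusted p 0.329) and Gsr, which reduces oxidised glutathione, -0.39 (adjusted p 0.441).

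Thioredoxin is the electron source of the peroxiredoxins, and none of the 15 tested genes of the thioredoxin and glutaredoxin system passed in limma, where 7.25% of all genes did. An unadjusted p under 0.05 was seen for 5 of the 15 and for 3279 of all 13501 genes. The list's median difference was 0.56. The mitochondrial pair, Txn2 and its reductase Txnrd2, had 0.33 (adjusted p 0.408) and 0.68 (adjusted p 0.128), and the cytosolic pair, Txn1 and Txnrd1, -0.39 (adjusted p 0.484) and 0.05 (adjusted p 0.929). Txnrd2 lay between -1.24 and -0.67 at 1 month and between -0.61 and 0.03 at 4 months. The 2 smallest p-values of the list belonged to Msrb2, a mitochondrial methionine sulfoxide reductase, at 1.63 (adjusted p 0.0641), and to Txnip, the thioredoxin-binding protein, at 0.96 (adjusted p 0.0717).

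Among 23 regulators and known targets of Nrf2, 5 rose, none fell and the median was 0.47 (4.19% of all genes rose). Nfe2l1, a transcription factor related to Nrf2, was -0.10, 0.24, 0.05 and 0.16 at 1 month and 1.67, 2.35, 2.15 and 1.66 at 4 months. The ages did not overlap, with a difference of 1.83 (SE 0.25, adjusted p 0.00753) that passed on leaving out any 1 sample. Fth1, the ferritin heavy chain that stores iron, rose by 1.73 (adjusted p 0.0117), and Nqo1, a quinone reductase, by 1.41 (adjusted p 0.0211). Chosen after their values were seen, the other 2 were Aox1, aldehyde oxidase, at 2.03 (adjusted p 0.0428, with overlapping ages) and Mafk, a small Maf protein, at 0.96 (adjusted p 0.0381). Nfe2l2 itself had a difference of 0.06 (adjusted p 0.911), its inhibitor Keap1 0.51 (adjusted p 0.263) and the heme oxygenase Hmox1 0.29 (adjusted p 0.654). Of the 21 glutathione S-transferases 1 rose (4.19% of all genes did), Gsta4, whose product conjugates lipid aldehydes, by 1.69 (adjusted p 0.0428). Gsta4 passed in 2 of the 8 fits with a sample left out. Its value in 4-month sample 4 was 0.17, with the other 4-month samples between -1.54 and -1.43.

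Of 16 genes that supply NADPH, which drives both electron chains, 2 rose (4.19% of all genes did), and 8 had differences above 0 and 8 below. Me3, the mitochondrial malic enzyme, was 1.15, 1.41, -0.20 and 0.23 at 1 month and 3.28, 4.47, 4.10 and 1.95 at 4 months, a difference of 2.69 (SE 0.58, adjusted p 0.0276). The other, also named after its value was seen, was H6pd, which makes NADPH in the endoplasmic reticulum, at 1.06 (adjusted p 0.0464). Of 15 genes of oxidant-producing enzymes 2 rose, against the same 4.19%. Cybb, the catalytic subunit of the phagocyte NADPH oxidase, went from between -0.28 and 0.66 to between 1.35 and 2.03 (difference 1.46, adjusted p 0.0205). The macrophage marker means, given above, overlapped between ages. Of the 10 macrophage markers tested, 9 had differences above 0 and the median was 1.06. For 4 of the 10 the ages did not overlap (21.1% of all genes), and none passed the test. Their part in the rise of Cybb was not tested. Nos1, the neuronal nitric oxide synthase, rose by 1.88 (adjusted p 0.00723), but its 2 probes differed, at 0.25 and 3.52.

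The organelles that house these enzymes were represented by 3 lists. Of 48 respiratory chain genes 9 rose, beside 4.19% of all genes, and 46 had differences above 0, beside 52.3%. The median was 0.83, and the ages did not overlap for 23, beside 21.1% of all genes. Cox7a1, the subunit form of cytochrome c oxidase known from heart and skeletal muscle, rose by 2.05 (adjusted p 0.0338). Ndufb8, a subunit of complex I, rose by 1.65 (adjusted p 0.0205). Among complex III subunits Uqcrfs1 rose by 1.40 and Uqcrc1 by 1.38, Atp5g1 of ATP synthase rose by 1.37, and cytochrome c, Cycs, by 1.26. Of 24 genes of the mitochondrial outer membrane, import and genome upkeep 4 rose (4.19% of all genes did), among them the porins Vdac1 (1.78) and Vdac3 (1.36) and Ppargc1a, a coactivator of mitochondrial gene expression (1.47). The list's remaining call, named after its value was seen, was Esrra, a nuclear receptor that works with Ppargc1a, at 0.84. Of 24 peroxisome genes 1 rose, Phyh, an enzyme of phytanic acid breakdown, by 1.51 (adjusted p 0.0219), a share near the 4.19% of all genes that rose. The ages did not overlap for 10 of the 24, where 21.1% of all genes showed none. None of the 15 tested genes for selenoproteins and their synthesis passed in limma (7.25% of all genes did), with 2 at an unadjusted p under 0.05. They were Pstk at 0.91 (adjusted p 0.094), a kinase in the making of selenocysteine, and Selenow, a small selenoprotein of muscle and other tissues, at 1.26 (adjusted p 0.156).

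**Figure D5:**
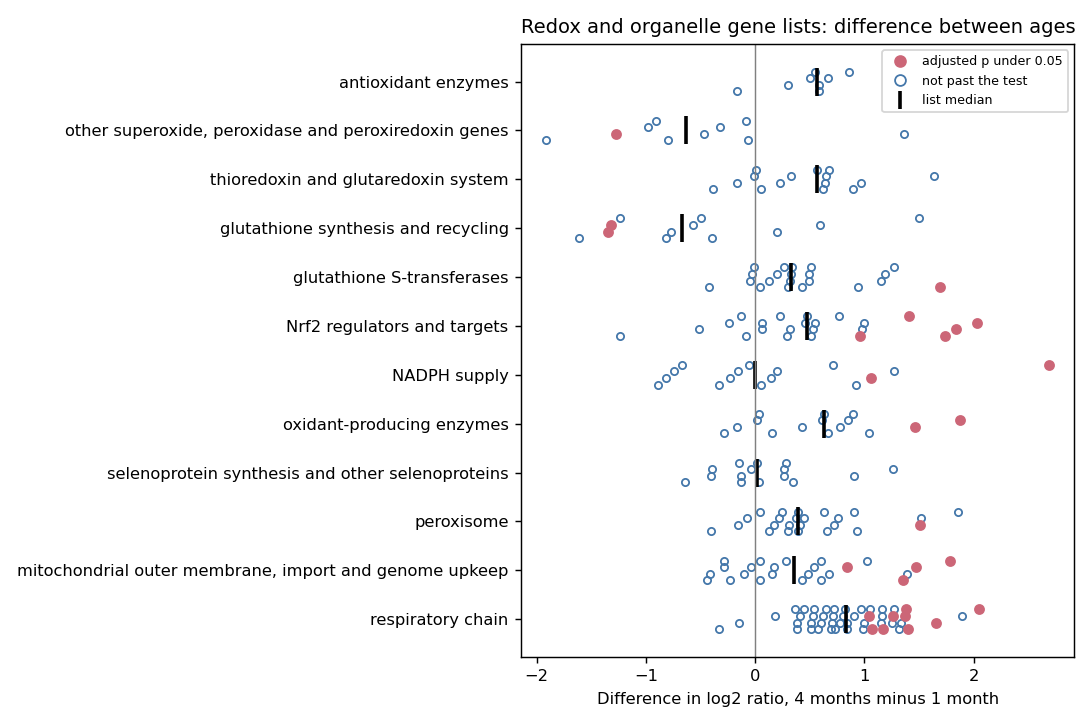
Difference in log2 ratio, 4 months minus 1 month (horizontal axis), for each tested gene of the antioxidant enzymes and the 11 lists of related genes (rows). Red filled points had an adjusted p under 0.05 in limma, open points did not, and black bars are list medians. The respiratory chain (median 0.83) holds 9 red points, all above 0, the glutathione synthesis list holds 2 below 0 and the antioxidant enzymes hold none.

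These calls rested in part on single samples. Of the 20 genes of the lists named by size and lack of overlap, 18 lost their call when 1-month sample 1 was left out. That fit called 1.22% of all genes, against 7.25% with all samples. Dropping sample 1, 2 or 3 of 4 months cost 10, 8 and 9 of the 20 their call, in fits that called 3.7%, 3.94% and 3.78% of genes. Nos1 and Nfe2l1 were the 2 that passed on leaving out each sample in turn. Outside the 20, Aox1, Mafk and Esrra each passed in 1 of the 8 fits with a sample left out. With the muscle marker mean as a covariate 18 of the 20 lost their call, in a fit that called 1.21% of all genes. On means per ID number (2 against 3) all 20 did, but that fit called 0 of 14469 genes. When exact zeros were kept as ratios 9 of the 20 lost their call, among them Me3, whose difference was then 0.56 (adjusted p 0.125). That fit called 3.36% of 19532 genes. It also took in probes that had failed the filter, so the probes behind a gene can differ from those used above.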

How the data were processed

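RNA of 8 Tsk2 skin samples was measured on 10 two-colour Agilent arrays of 41174 probes. The deposited values are the authors' processed log2 ratios of the 2 dyes. The base is read from the values. How the authors corrected background and normalized the arrays, and with which scanner software, is not given in the sources used here. Signs were turned (see the report), exact zeros set to missing, repeat arrays of a sample averaged and probes of a gene averaged, with a missing probe filled from an additive fit. Probes were named from the platform annotation (32664 with 1 symbol, 45 with several, 8465 with none; 32524 were found in the RefSeq table). Genes with values in at least 3 samples of each age were tested with limma 3.58.1 (R 4.3.3, statmod 1.5.0), with ID number as a random block (consensus correlation 0.313) and Benjamini-Hochberg adjustment over 13501 genes. The code was tested on simulated data. Pairs of members were compared by exact permutation over samples, without regard to ID number. Measured probes per array ranged from 21665 to 30425, and the small number of arrays limits precision.

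Every member is named. From the related lists, genes past the test with non-overlapping ages were named, up to 20 by size, and for lists with none past the test the 2 smallest p-values. Partner genes of the enzymes were named in addition. The members and lists were chosen with earlier results of these data known. Alternatives covered the block, ID means, zeros, normalization, filters, repeat arrays, probes, a muscle covariate, array weights and leaving out each sample. Each Sod1 probe alone was added after seeing the data. Sequences are from RefSeq (GRCm38.p6).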

Additional observations from a re-analysis of the deposited data

Results flagged for a closer look

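Of 62 groups of 4 samples examined for the members and the genes named from the lists, 4 had 1 sample far from the other 3 by Dixon's test at the 95% level, where chance flags about 1 group in 20. Cat in 4-month sample 1 had a log2 ratio of 2.47, with the others between 1.35 and 1.39. Gsta4 in 1-month sample 2 had -2.22, with the others between -2.87 and -2.85. Gsta4 in 4-month sample 4 had 0.17, with the others between -1.54 and -1.43. Selenow in 4-month sample 4 had 0.99, with the others between 2.59 and 2.79.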

How the results depend on the processing

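The number of genes past the test in limma was 979, and it was 2022 without the ID block, 3585 with array weights, 164 with the muscle marker mean as a covariate (72 higher and 92 lower) and 0 on means per ID number, where 2568 had an unadjusted p under 0.05. Leaving out 1 sample gave 157 to 2172 genes. The lowest was without 1-month sample 1, the highest without 4-month sample 4, and 4-month samples 1, 2 and 3 gave 473, 504 and 496. The antioxidant enzymes past the test numbered 0, 1 without the block, 2 with array weights and 0 to 2 on leaving out a sample. Sod2 passed without the block (0.88), with array weights (0.81) and without 4-month sample 4, and its range on leaving out a sample was 0.73 to 1.02. Gpx4 passed with array weights (1.00), and Prdx3 without 4-month sample 4, within a range of 0.27 to 0.95. Gpx3 turned sign after quantile normalization (-0.15) and with the muscle covariate (-0.67), and Sod1 with its first cDNA probe alone (-0.048). On leaving out a sample, Sod2 minus Sod1 ranged from -0.21 to 0.69. The first cDNA probe of Sod1 also left the fit when 1-month sample 1, 2 or 4 was dropped. Gpx3 minus Gpx1 ranged from -0.26 to 0.45, and it could not be tested without 1-month sample 1, 3 or 4. With exact zeros kept as ratios Gpx3 minus Gpx1 was 1.30 and Me3 fell short of the threshold at 0.56. That setting also takes in probes that had failed the filter. Sod1, Sod2, Cat, Gpx1, Gpx4 and Prdx3 had differences above 0 under all 18 other settings tried, and Prdx1 below 0. No paired analysis was possible because no ID number occurs at both ages and the sample numbers only name samples. The cause of these changes was not tested. Values rest on 4 samples an age, and a probe at exact 0 has no level here.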
